A study of Mus musculus with 12 samples.

Results

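The genotype by cisplatin interaction in mouse kidney was examined gene by gene as the cisplatin effect in FAN1KO kidneys minus the cisplatin effect in wild-type kidneys. All 12 whole-kidney RNA sequencing libraries entered it, and a gene was a member if its deposited value was at least 1 TPM (transcripts scaled to a fixed total in each library) in at least 3 libraries, which held for 14972 of the 27179 genes in the table. The libraries came from 4 groups of 3 mice of mixed strain background that were 8 to 12 weeks old. Wildtype control mice received saline, and wildtype cisplatin mice received cisplatin into the peritoneum at 2 mg/kg once a week for 5 weeks. The FAN1KO mice, labelled γGT1-Cre;Fan1-/-, received either saline or the same course of cisplatin. The Cre in these mice is driven by the γGT1 promoter, which is active in the proximal tubule, so the other cells of a FAN1KO kidney still carry Fan1.

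FAN1 is a nuclease of the Fanconi anaemia pathway that helps to remove DNA interstrand crosslinks, and cisplatin is a platinum drug that makes such crosslinks and is taken up by the proximal tubule. The proximal tubule reabsorbs glucose, amino acids, phosphate and filtered protein, and it burns fatty acids and other fuels in its mitochondria to do so. Unrepaired DNA damage stabilises p53, which switches on genes of cell cycle arrest and cell death, while an injured tubule cell loses its transporters and makes injury proteins instead. A response shared by both genotypes has an interaction near 0, a response larger in FAN1KO kidneys has an interaction of the same sign as the response, and a response that goes opposite ways in the genotypes can have a large interaction from 2 modest effects.

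The libraries held 37201916 to 82947187 reads in genes, as recovered from the steps in the TPM. Fan1 was 3.80, 3.35 and 1.98 TPM in wild-type saline, 2.33, 3.57 and 3.32 in wild-type cisplatin, 1.17, 1.54 and 2.28 in FAN1KO saline and 2.72, 3.51 and 1.55 in FAN1KO cisplatin kidneys. Its levels overlapped between genotypes and its interaction was 0.39 ± 0.38 (adjusted p 0.561), so Fan1 RNA of whole kidney did not separate the labels, and a gene-level TPM does not show which exons its reads came from. Each group held 1 library with Y-linked RNA (a mean log2(TPM + 1) of at least 3.46 over 4 Y-linked genes) and 2 libraries without (at most 0.104). Mitochondrially encoded genes took 10.2, 13.7 and 16.7% of the TPM in FAN1KO cisplatin kidneys and 18.3 to 22.7% in the other 9. The median interaction over all genes tested was 0.28 on the log2(TPM + 1) scale (0.37 in FAN1KO and 0.08 in wild-type kidneys). Median-ratio scaling, which brings the libraries to a common median ratio, took the median to −0.03. The part of the mitochondrial share in this median was not tested.

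Cisplatin changed many more genes in FAN1KO than in wild-type kidneys, and 935 genes (6.24% of those tested) had an interaction with an adjusted p under 0.05 by limma's moderated test. Of these, 782 (5.22%) were higher, with the injury genes Lcn2 and Havcr1 the largest, and 153 (1.02%) were lower, with 4 globin genes and then Pvalb the most negative. Within FAN1KO kidneys cisplatin moved 39.8% of the genes past the test: 5229 genes (34.9%) rose with cisplatin and 733 (4.9%) fell. Within wild-type kidneys 9 genes (0.0601%) rose and 0 (0.0%) fell by the same limma test, although 382 were higher and 67 lower at an unadjusted p under 0.05. At that unadjusted level 3751 genes had an interaction. Leaving out 1 library in turn gave 217 (without wild-type saline replicate 1) to 981 (without FAN1KO cisplatin replicate 3) genes higher and 51 (without FAN1KO cisplatin replicate 1 or 2) to 216 (without FAN1KO cisplatin replicate 3) lower. The higher count was also below 782 by more than 1.5 times without FAN1KO cisplatin replicate 1 (218) or 2 (256), FAN1KO saline replicate 1 (327) or 3 (337), wild-type saline replicate 2 (294) and wild-type cisplatin replicate 1 (358) or 2 (445).

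The called interactions came almost wholly from the FAN1KO arm. Among the 782 higher genes, 781 rose in FAN1KO kidneys and 2 were called in wild-type kidneys, with medians of 1.17 and 0.12 for the cisplatin effect in each. Among the 153 lower genes, 151 fell in FAN1KO kidneys and 1 was called in wild-type kidneys, with medians of −0.99 and −0.02. All 3 FAN1KO cisplatin libraries lay above the other 9 for 733 of the 782 (29.0% of all genes tested did so) and below them for 136 of the 153 (4.31% of all genes). The genotypes differed under saline by the limma test for 18 of the higher and 8 of the lower genes, and under cisplatin for 734 and 144. The FAN1KO saline mean lay under the wild-type saline mean for 639 of the 782, against 57.9% of all genes. This lean is part of the contrast that chose the genes, and its median was −0.17. The FAN1KO cisplatin levels are part of that contrast too, so the other counts in this paragraph only describe the called genes.

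**Figure D1:**
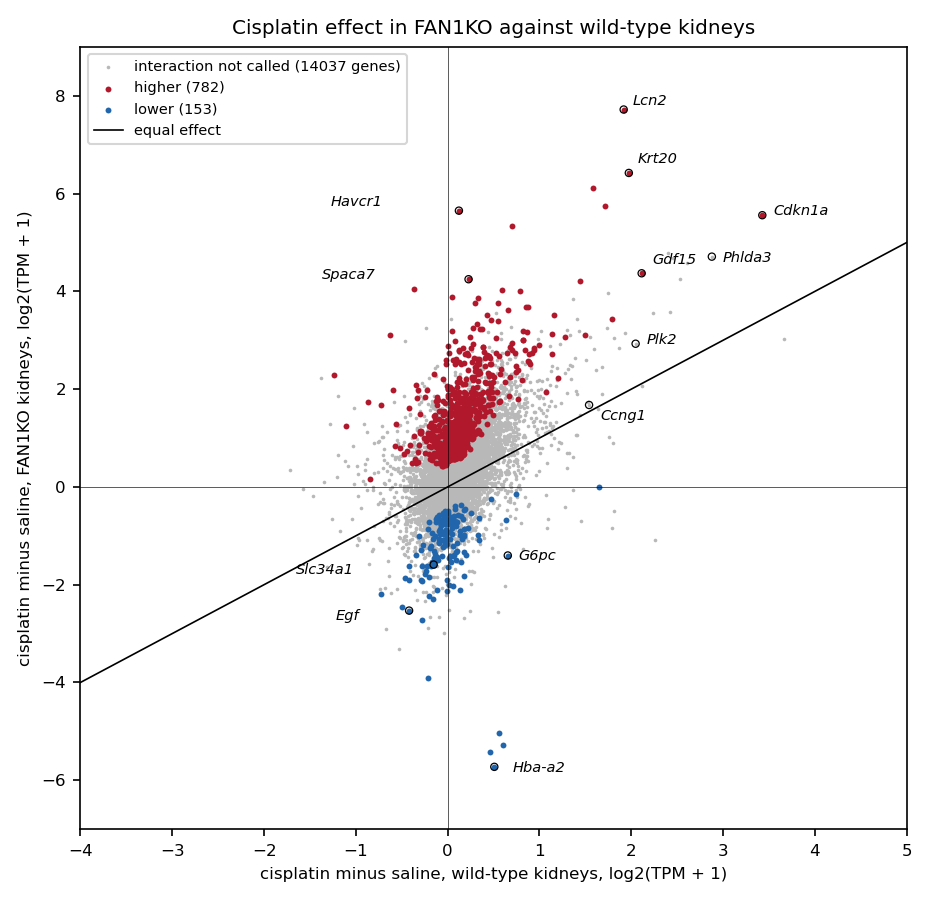
Cisplatin minus saline in wild-type kidneys (horizontal axis) against the same difference in FAN1KO kidneys (vertical axis), both on the log2(TPM + 1) scale, with 1 point a gene and the diagonal at an equal effect. The 782 genes called higher (red) and the 153 called lower (blue) spread along the vertical axis near 0 on the horizontal axis, while Ccng1 sits on the diagonal.

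The genes were read in 39 lists of processes and cell types. The direction of a list is given by the number of its tested members called higher and lower and by its median interaction. These are to be set against 5.22% and 1.02% called and a median of 0.28 over all genes. Tubule injury genes had the largest median (2.22), followed among lists of at least 10 tested genes by NF-kB response genes (1.17), antigen presentation genes (1.04) and mitotic genes (0.99). At the other end stood erythroid genes (−1.54), endothelial genes (−0.96), gluconeogenesis genes (−0.74) and proximal tubule transporters (−0.63). Lists near the median of all genes included tubule transcription factors (0.29), collagen and matrix genes (0.28) and collecting duct genes (0.19). The lists hold 1013 tested genes. Of these, 22 passed the filter on low values through the 3 FAN1KO cisplatin libraries alone and so had to differ (160 of all genes, 67 of the 782 called higher), which is why the counts over members are descriptions. In whole kidney, fewer cells of a type and less RNA per cell cannot be told apart.

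**Figure D2:**
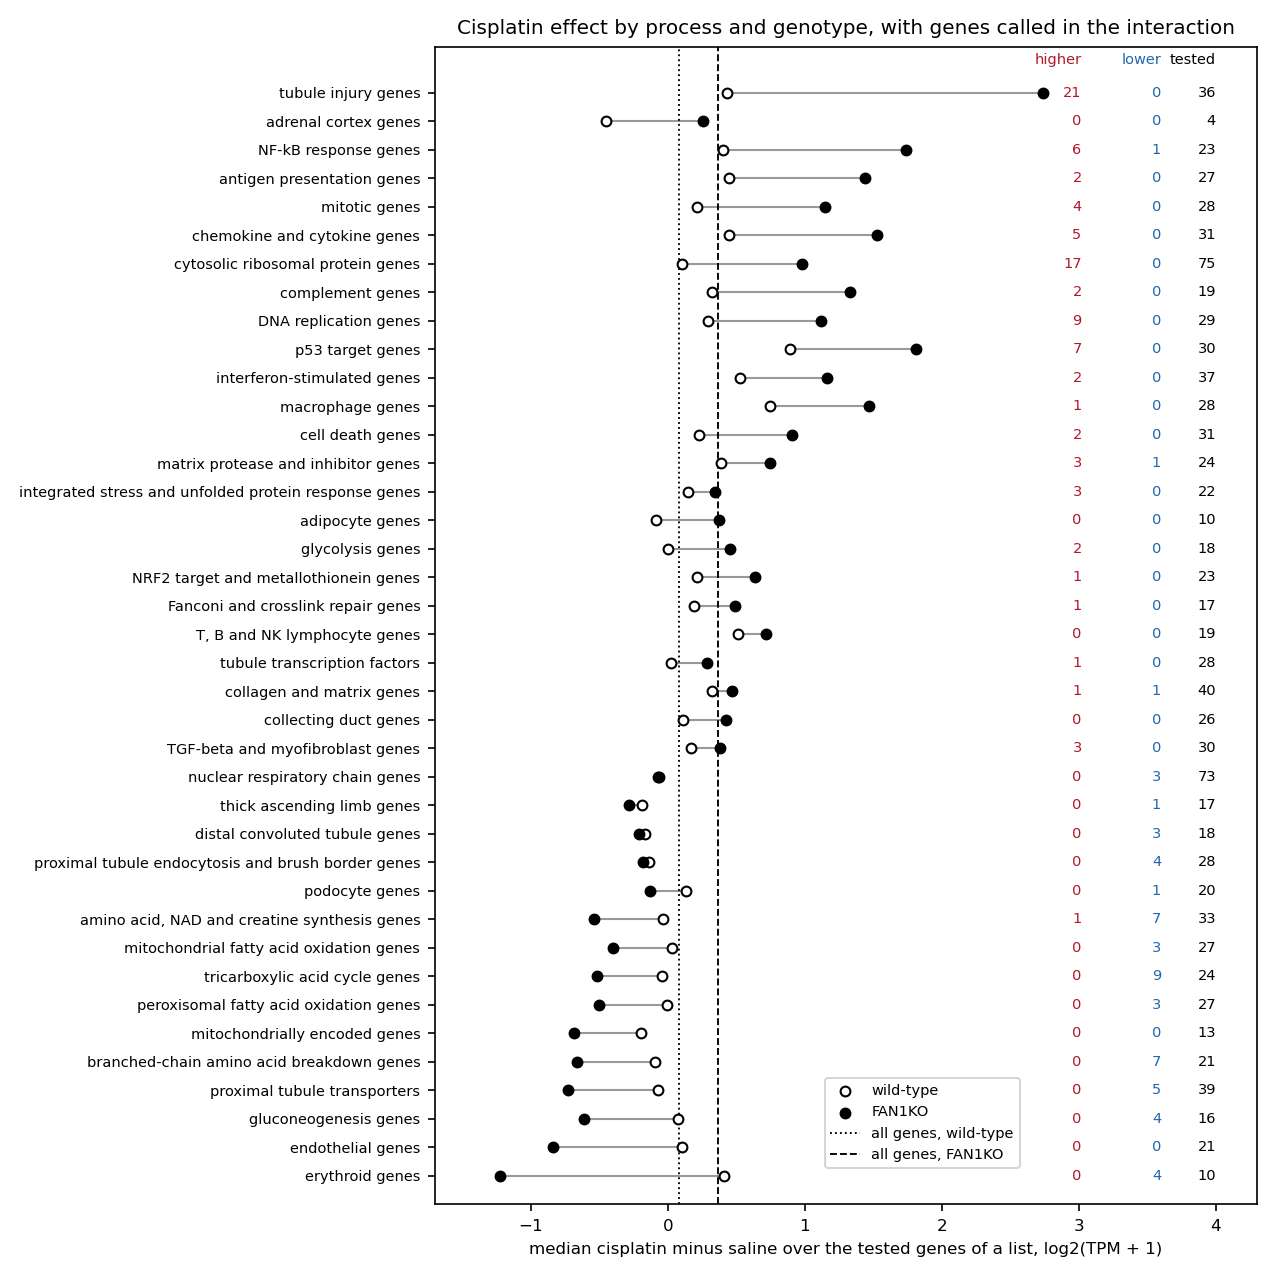
Median cisplatin effect over the tested genes of each of 39 lists in wild-type (open) and FAN1KO (filled) kidneys on the log2(TPM + 1) scale, in the order of the median interaction, with the numbers of genes called higher, called lower and tested at the right. Dotted and dashed lines mark the medians of all genes (0.08 and 0.37); the wild-type medians stay between −0.45 and 0.89 while the FAN1KO medians run from −1.22 to 2.74.

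Tubule injury genes made up the most frequent calls, with 21 of 36 tested members higher and 0 lower by limma (5.22% and 1.02% of all genes), and all 36 had an interaction above 0, as did 74.7% of all genes. Of the 36, 2 passed the filter on low values through the FAN1KO cisplatin libraries alone and so had to differ, and both are among the 21. Lcn2, which encodes the iron-siderophore-binding protein NGAL shed by injured tubules, was 3.33, 5.21 and 2.48 TPM in wild-type saline, 4.37, 42.1 and 20.8 in wild-type cisplatin, 0.401, 1.86 and 0.281 in FAN1KO saline and 517, 349.8 and 265 in FAN1KO cisplatin kidneys. Its FAN1KO cisplatin libraries stood above all others, 2 of 3 wild-type cisplatin libraries were raised, and the FAN1KO saline libraries were the lowest. The interaction was 5.80 ± 0.90 (adjusted p 0.0111), where ± gives the SE, from cisplatin effects of 1.92 in wild-type and 7.72 in FAN1KO kidneys. Havcr1, the phosphatidylserine receptor KIM-1 of injured proximal tubule, was 60.5, 50.3 and 20.4 TPM in wild-type saline, 19.6, 63.2 and 64.9 in wild-type cisplatin, 7.61, 27.8 and 0.972 in FAN1KO saline and 373, 243 and 679 in FAN1KO cisplatin kidneys. Its interaction of 5.53 ± 1.22 (adjusted p 0.0300) was larger than the gap between genotypes under cisplatin (3.16, adjusted p 0.0251), as FAN1KO saline kidneys lay −2.37 from wild-type saline ones (adjusted p 0.411), and they overlapped. It was 4.53 (adjusted p 0.0426) without FAN1KO saline replicate 3, which held 0.972 TPM, and it lost its call without wild-type saline replicate 1 or 2, wild-type cisplatin replicate 1, FAN1KO saline replicate 1 or FAN1KO cisplatin replicate 1 or 2 (4.98 to 5.88, adjusted p 0.0552 to 0.0777).

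Krt20, an intermediate filament protein that is nearly silent in resting kidney, was 0.0324, 0.263 and 0.124 TPM in wild-type saline, 0.720, 4.98 and 7.64 in wild-type cisplatin, 0.213, 0.130 and 0.414 in FAN1KO saline and 181, 119 and 55.5 in FAN1KO cisplatin kidneys. It was at or under 0.414 TPM in all 6 saline libraries, up to 7.64 in wild-type cisplatin and at least 55.5 in FAN1KO cisplatin kidneys, with an interaction of 4.45 ± 0.77 (adjusted p 0.0143). Krt19, a simple-epithelium keratin, gave 3.45 ± 0.46 (adjusted p 0.00596) and Sprr1a, a cross-linked envelope protein, 4.54 ± 0.75 (adjusted p 0.0131). S100a6, a calcium-binding protein of proliferating and stressed cells, was 31.8, 28.2 and 16.4 TPM in wild-type saline, 17.7, 70.1 and 52.4 in wild-type cisplatin, 11.0, 27.8 and 18.0 in FAN1KO saline and 969.9, 688 and 649 in FAN1KO cisplatin kidneys, and its interaction was 4.64 ± 0.67 (adjusted p 0.00815). The FAN1KO cisplatin libraries were at least 649 TPM and the highest of the others was 70.1. Akap12, a scaffold for protein kinases, gave 3.47 ± 0.82 (adjusted p 0.0375).

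Spaca7, which encodes a sperm acrosome protein, was 0, 0 and 0.0262 TPM in wild-type saline, 0.117, 0.179 and 0.252 in wild-type cisplatin, 0.180, 0 and 0.158 in FAN1KO saline and 21.7, 17.4 and 21.4 in FAN1KO cisplatin kidneys. It passed the filter on low values through the FAN1KO cisplatin libraries alone and so had to differ, and its interaction of 4.02 ± 0.21 (adjusted p 1.91e-05) is a description. Serpina10, the protein Z-dependent protease inhibitor of coagulation, was 19.5, 14.0 and 7.23 TPM in wild-type saline, 2.94, 16.2 and 16.6 in wild-type cisplatin, 2.97, 3.95 and 1.04 in FAN1KO saline and 61.1, 53.8 and 51.8 in FAN1KO cisplatin kidneys. Its interaction of 4.41 ± 0.79 (adjusted p 0.0157) drew on a rise of 4.04 in FAN1KO kidneys and on saline levels that were lower in FAN1KO than in wild-type kidneys by a difference of −2.00 (adjusted p 0.221).

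**Figure D3:**
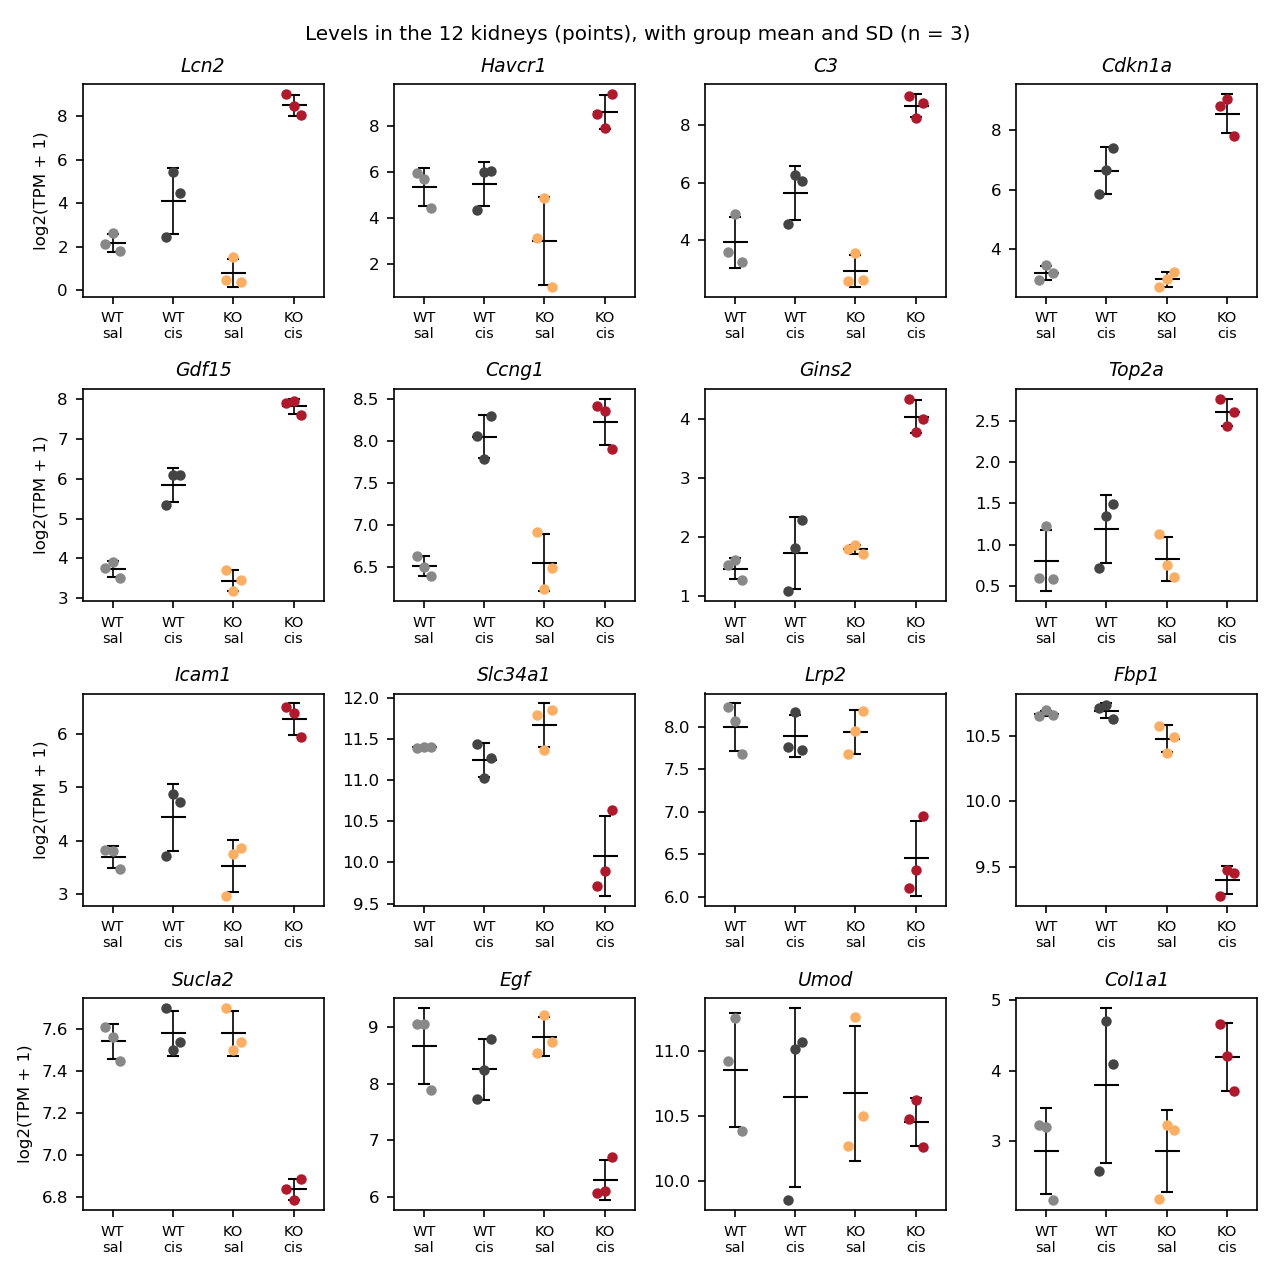
Levels of 16 genes in each of the 12 kidneys as log2(TPM + 1) (points), by group, with the mean and SD of 3 mice (WT wild-type, KO FAN1KO, sal saline, cis cisplatin). The KO cis points stand apart for Lcn2, Havcr1 and C3 upward and for Slc34a1, Lrp2, Fbp1, Sucla2 and Egf downward, KO cis and WT cis overlap for Ccng1, and all 4 groups overlap for Umod.

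Some p53 target genes rose with cisplatin in wild-type kidneys too. Of 30 tested members, 26 rose in FAN1KO kidneys (34.9% of all genes did) and 7 in wild-type kidneys, where only 2 other genes in the whole table rose, and the wild-type effect was above 0 in 29 of 30. The wild-type calls depended on single libraries: the 9 higher genes of the whole table became 0 without any of the 3 wild-type saline libraries, without wild-type cisplatin replicate 2 or 3 and in the fit blocked on replicate number, 2 without FAN1KO cisplatin replicate 2, and 41 without wild-type cisplatin replicate 1. The interaction was called higher for 7 members (Bbc3, Gdf15, Cdkn1a, Gtse1, Eda2r, Zmat3 and Perp) and lower for 0, against 5.22% and 1.02% of all genes. The list medians were 1.81 in FAN1KO and 0.89 in wild-type kidneys, and over the 26 members that rose in FAN1KO kidneys the median wild-type effect was 0.515 of the FAN1KO effect on the log2 scale.

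Cdkn1a, the cyclin-dependent kinase inhibitor p21, was 6.88, 9.98 and 8.13 TPM in wild-type saline, 56.8, 99.2 and 169 in wild-type cisplatin, 5.68, 6.92 and 8.53 in FAN1KO saline and 442, 529 and 224 in FAN1KO cisplatin kidneys. Both cisplatin groups stood above all 6 saline libraries, and the FAN1KO group stood above the wild-type group. It rose by 5.56 in FAN1KO and 3.43 in wild-type kidneys (adjusted p 3.42e-05 and 0.0222), and the interaction of 2.13 ± 0.55 (adjusted p 0.0472) was close to the threshold. Gdf15, a stress cytokine that suppresses appetite, was 12.7, 14.0 and 10.5 TPM in wild-type saline, 39.9, 66.8 and 67.6 in wild-type cisplatin, 12.0, 8.03 and 10.00 in FAN1KO saline and 238, 247 and 192 in FAN1KO cisplatin kidneys. Its order was the same, with effects of 4.37 and 2.11 and an interaction of 2.26 ± 0.30 (adjusted p 0.00597). Bbc3, the cell death protein PUMA, had the largest interaction of the list, 2.36 ± 0.32 (adjusted p 0.00597), with FAN1KO cisplatin levels of 53.1, 46.3 and 37.7 TPM against 7.54, 10.9 and 14.2 in wild-type cisplatin kidneys. Gtse1, which restrains p53 in cycling cells, gave 1.78 ± 0.40 (adjusted p 0.0321), and Eda2r, a receptor of the tumour necrosis factor family, gave 1.62 ± 0.38 (adjusted p 0.0384).

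For 5 of the 7 p53 targets that rose in both genotypes the interaction was not called. Ccng1, cyclin G1, was 98.4, 90.0 and 83.3 TPM in wild-type saline, 267, 220.5 and 315 in wild-type cisplatin, 119.9, 75.0 and 89.2 in FAN1KO saline and 340.2, 329 and 239.6 in FAN1KO cisplatin kidneys. The cisplatin groups overlapped each other and cleared all saline libraries, with effects of 1.68 and 1.54 and an interaction of 0.14 ± 0.28 (adjusted p 0.798), which median-ratio scaling turned to −0.23. Sesn2, a sestrin that restrains mTOR, rose by 0.90 and 1.24, with an interaction of −0.33 ± 0.23 (adjusted p 0.390). The nuclease gene Aen gave an interaction of 0.50 ± 0.25 (adjusted p 0.243), the kinase gene Plk2 of 0.88 ± 0.36 (adjusted p 0.155) and Phlda3, a repressor of AKT, of 1.83 ± 0.53 (adjusted p 0.0651), and each of the 3 rose in both genotypes. Mdm2, the ligase that destroys p53, gave 0.76 ± 0.30 (adjusted p 0.146). Exoc4, a subunit of the exocyst and no member of the list, rose by 0.85 and 0.92 with the smallest interaction among genes called in both genotypes, −0.07 ± 0.15 (adjusted p 0.815). In all, 8 genes were called in both genotypes, and 2 of these (Cdkn1a and Gdf15) had a called interaction.

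**Figure D4:**
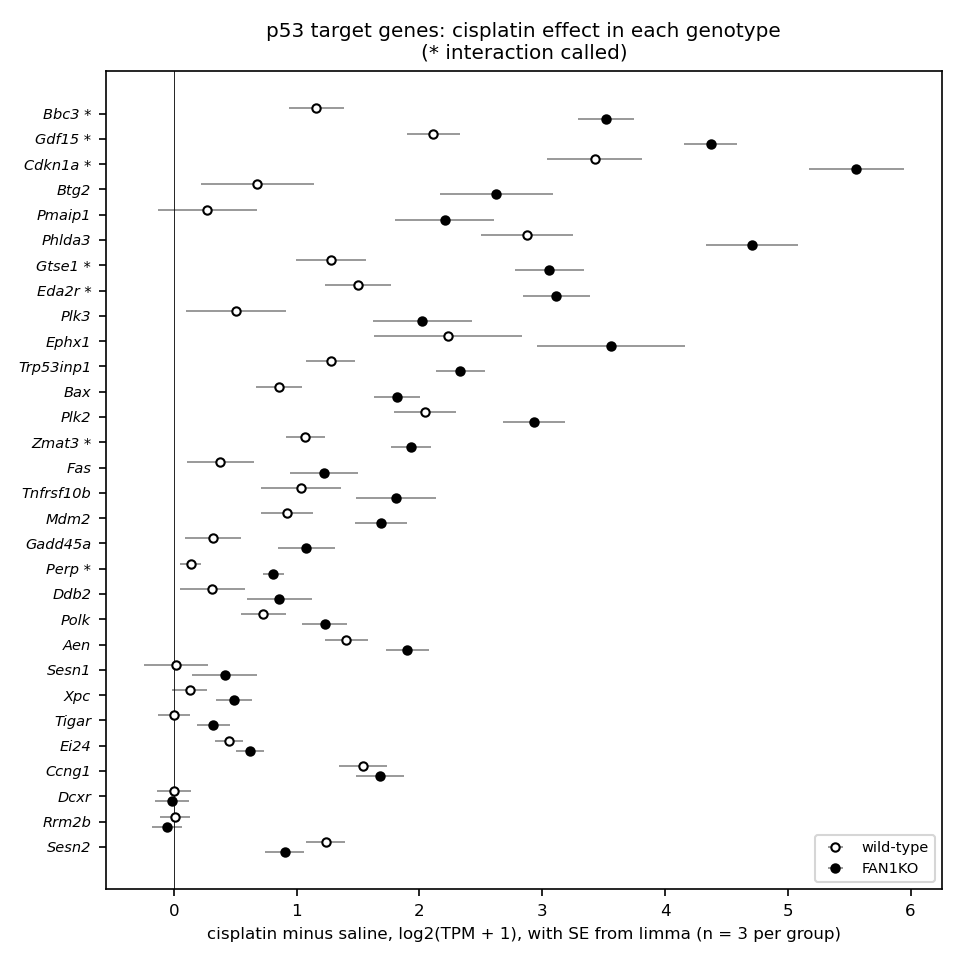
Cisplatin minus saline for the 30 tested p53 target genes in wild-type (open) and FAN1KO (filled) kidneys, log2(TPM + 1), with the SE from limma (n = 3 mice a group), ordered by interaction, and an asterisk at the 7 called interactions. FAN1KO points lie to the right of wild-type points for 27 of 30 genes, by the most for Bbc3, and the error bars of Ccng1 overlap.

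DNA replication genes had 9 of 29 tested members called higher and 0 lower, and mitotic genes 4 of 28 and 0 (5.22% of all genes were called higher). The FAN1KO cisplatin libraries were above all others for 24 members of each list (29.0% of all genes). Of the members, 2 and 9 passed the filter through these libraries alone and so had to be highest there. Gins2, a subunit of the replicative helicase, was 1.87, 2.04 and 1.40 TPM in wild-type saline, 1.11, 2.53 and 3.87 in wild-type cisplatin, 2.47, 2.62 and 2.27 in FAN1KO saline and 19.3, 12.7 and 15.0 in FAN1KO cisplatin kidneys. Wild-type cisplatin and saline libraries overlapped, and the interaction was 1.99 ± 0.39 (adjusted p 0.020). Uhrf1, which brings maintenance DNA methylation to replicated DNA, gave 1.88 ± 0.35 (adjusted p 0.0174), Rrm2, a subunit of ribonucleotide reductase, 1.58 ± 0.37 (adjusted p 0.0366), and Mcm5, another helicase subunit, 1.20 ± 0.31 (adjusted p 0.0491). Pcna, the replication clamp, had 0.57 ± 0.24 (adjusted p 0.165).

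The mitotic genes were at low levels throughout. Top2a, the topoisomerase that untangles sister chromatids, was 0.509, 1.35 and 0.505 TPM in wild-type saline, 0.652, 1.55 and 1.82 in wild-type cisplatin, 1.18, 0.682 and 0.529 in FAN1KO saline and 5.80, 4.42 and 5.09 in FAN1KO cisplatin kidneys, with an interaction of 1.39 ± 0.36 (adjusted p 0.0487). Cdk1, the kinase that starts mitosis, was 0.339, 0.666 and 0.565 TPM in wild-type saline, 0.434, 1.28 and 1.32 in wild-type cisplatin, 1.14, 0.439 and 0.392 in FAN1KO saline and 5.26, 4.05 and 4.26 in FAN1KO cisplatin kidneys, with 1.39 ± 0.34 (adjusted p 0.0408). For both genes the FAN1KO cisplatin libraries were the highest 3, and the wild-type cisplatin libraries reached no more than 1.82 and 1.32 TPM. Plk1, a mitotic kinase, gave 1.31 ± 0.34 (adjusted p 0.0476), Hmmr, a spindle protein and one of the 9 that passed the filter through the FAN1KO cisplatin libraries alone, 0.98 ± 0.25 (adjusted p 0.0464), and the proliferation marker Mki67 0.85 ± 0.30 (adjusted p 0.113). Median-ratio scaling left 3 of the 9 replication calls and 0 of the 4 mitotic calls. Among genes of Fanconi and crosslink repair, 1 of 17 tested was called higher (5.88%, against 5.22% of all genes): Ercc1, a partner of the nuclease XPF, at 1.54 ± 0.35 (adjusted p 0.0331).

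Promoter windows of the 4 called mitotic genes are shown because they carry both elements that cell cycle promoters are known for. A window ran from 250 bases before to 50 after the start of a RefSeq transcript (build GRCm38.p6, 300 bases, 5′ to 3′ on the strand of the gene). The letters CCAAT (bound by NF-Y) and TTTGAA (the core of the cell cycle homology region) were searched on both strands, do not overlap each other in these windows and stand in capitals. Where RefSeq gave several starts, the first window holding both is shown.

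Top2a, chr11:99024140-99024439, minus strand: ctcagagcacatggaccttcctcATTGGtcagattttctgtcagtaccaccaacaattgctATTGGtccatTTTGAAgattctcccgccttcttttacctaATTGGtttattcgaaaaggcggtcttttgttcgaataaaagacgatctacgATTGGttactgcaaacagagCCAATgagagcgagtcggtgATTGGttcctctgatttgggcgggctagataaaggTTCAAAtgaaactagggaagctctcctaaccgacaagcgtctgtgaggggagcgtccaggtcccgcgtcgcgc
Cdk1, chr10:69352863-69353162, minus strand: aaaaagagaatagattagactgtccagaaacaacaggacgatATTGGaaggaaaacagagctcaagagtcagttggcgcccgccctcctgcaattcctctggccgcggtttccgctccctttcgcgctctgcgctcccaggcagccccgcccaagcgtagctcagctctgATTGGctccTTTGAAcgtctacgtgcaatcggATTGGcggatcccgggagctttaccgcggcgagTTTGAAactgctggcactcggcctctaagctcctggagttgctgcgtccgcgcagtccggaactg
Plk1, chr7:122159185-122159484, plus strand: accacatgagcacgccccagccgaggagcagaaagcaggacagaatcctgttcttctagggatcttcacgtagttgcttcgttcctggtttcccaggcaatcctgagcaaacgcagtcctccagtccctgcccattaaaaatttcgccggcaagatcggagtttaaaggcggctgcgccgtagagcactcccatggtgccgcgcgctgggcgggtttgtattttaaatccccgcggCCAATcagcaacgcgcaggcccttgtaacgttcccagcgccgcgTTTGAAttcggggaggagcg
Hmmr, chr11:40733388-40733687, minus strand: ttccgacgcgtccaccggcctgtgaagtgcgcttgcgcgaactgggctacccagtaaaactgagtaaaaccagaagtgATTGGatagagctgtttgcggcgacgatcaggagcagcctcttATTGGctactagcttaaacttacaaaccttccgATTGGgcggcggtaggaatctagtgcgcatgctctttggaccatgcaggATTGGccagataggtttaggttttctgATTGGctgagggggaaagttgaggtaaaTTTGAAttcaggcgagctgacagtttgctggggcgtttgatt

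CCAAT occurred 6 times in the Top2a window, 3 in Cdk1, 1 in Plk1 and 5 in Hmmr, and TTTGAA 2, 2, 1 and 1 times. Both elements occurred for 15 of the 23 tested mitotic genes that have a window and for 7.97% of all 27025 genes with one, of which 41.1% had CCAAT and 20.2% TTTGAA. These are matches of letters, and binding was not measured.

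Transporters of the proximal tubule take solutes back from the filtrate. Of 39 tested transporters 5 had an interaction called lower and 0 higher (1.02% of all genes were lower). The interaction was below 0 for 34, and 18 fell in FAN1KO kidneys (4.9% of all genes did) with none called in wild-type kidneys. Slc34a1, the main sodium-phosphate cotransporter of the brush border, was 2681, 2706 and 2717 TPM in wild-type saline, 2776, 2087 and 2476 in wild-type cisplatin, 3563, 2635 and 3689 in FAN1KO saline and 837, 954 and 1590.0 in FAN1KO cisplatin kidneys. All 3 FAN1KO cisplatin libraries lay below the other 9, and the interaction was −1.44 ± 0.33 (adjusted p 0.0338). Slc13a3, a dicarboxylate transporter, was 452, 433 and 427 TPM in wild-type saline, 495, 456 and 446 in wild-type cisplatin, 706, 595 and 493 in FAN1KO saline and 177, 182 and 280.4 in FAN1KO cisplatin kidneys, with −1.59 ± 0.25 (adjusted p 0.0114). Slc34a3, the second phosphate cotransporter, gave −1.96 ± 0.45 (adjusted p 0.0338). Slc16a14, an orphan monocarboxylate transporter of the tubule, was 26.9, 28.3 and 29.5 TPM in wild-type saline, 36.9, 21.4 and 28.1 in wild-type cisplatin, 55.7, 43.3 and 42.0 in FAN1KO saline and 8.99, 9.71 and 10.9 in FAN1KO cisplatin kidneys. FAN1KO saline kidneys held the most and FAN1KO cisplatin kidneys the least, and the interaction was −2.13 ± 0.25 (adjusted p 0.00461). The glucose transporter Slc5a2 (SGLT2) had −0.83 ± 0.27 (adjusted p 0.0875), with FAN1KO cisplatin levels of 175, 159 and 212 TPM that overlapped wild-type cisplatin levels of 288, 213 and 194 TPM, and the organic anion transporter Slc22a6 had −2.04 ± 0.92 (adjusted p 0.200).

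Endocytosis and brush border genes had 4 of 28 tested members called lower and 0 higher (1.02% of all genes were lower). Their median interaction was −0.11, and 7 of the 28 fell in FAN1KO kidneys (4.9% of all genes did). Lrp2, the scavenger receptor megalin, was 299, 268 and 204 TPM in wild-type saline, 217, 289 and 211 in wild-type cisplatin, 204, 246 and 291 in FAN1KO saline and 67.6, 78.3 and 122 in FAN1KO cisplatin kidneys, without overlap, and gave −1.38 ± 0.33 (adjusted p 0.0390). Cubn, its partner cubilin, gave −0.78 ± 0.36 (adjusted p 0.205). The brush border peptidases Dpep1 and Anpep gave −1.65 ± 0.26 (adjusted p 0.0111) and −0.92 ± 0.21 (adjusted p 0.0328). Ggt1, the enzyme whose promoter drives the Cre, was 819, 833 and 1459 TPM in wild-type saline, 1484, 755 and 847 in wild-type cisplatin, 1295, 718 and 650.1 in FAN1KO saline and 349, 474 and 868 in FAN1KO cisplatin kidneys, with an interaction of −0.67 ± 0.57 (adjusted p 0.498). Tubule transcription factors stayed near the median of all genes, with 1 of 28 called (3.57%, against 6.24% of all genes). Pax8, a factor of kidney development and repair, was that one, at 0.97 ± 0.20 (adjusted p 0.0240). Hnf4a, the master factor of proximal tubule identity, gave −0.58 ± 0.19 (adjusted p 0.0942).

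Beyond the proximal tubule the nephron sets salt, calcium and water balance. Distal convoluted tubule genes had 3 of 18 called lower, thick ascending limb genes 1 of 17 and collecting duct genes 0 of 26 by limma. Over all genes 1.02% were called lower and 5.22% higher. The 1 thick ascending limb call was Egf, which is in both lists and is also among the 3. Of the collecting duct genes 5 were higher and 0 lower at an unadjusted p under 0.05, 1 was called higher by voom, and 8 had all FAN1KO cisplatin libraries above the other 9 (29.0% of all genes). Egf, the growth factor made by distal tubules, was 533, 533 and 237 TPM in wild-type saline, 211, 300.3 and 443 in wild-type cisplatin, 369.8, 589.5 and 426 in FAN1KO saline and 66.2, 67.8 and 104 in FAN1KO cisplatin kidneys, and gave −2.11 ± 0.51 (adjusted p 0.0395). Pvalb, a calcium-binding protein of the distal convoluted tubule, was 369, 411 and 211 TPM in wild-type saline, 187, 303 and 358 in wild-type cisplatin, 59.1, 198 and 379.5 in FAN1KO saline and 4.55, 12.9 and 16.6 in FAN1KO cisplatin kidneys, with −3.68 ± 0.89 (adjusted p 0.0402), and Kl, the FGF23 co-receptor klotho, was 280.2, 249.6 and 211 TPM in wild-type saline, 242, 203 and 211 in wild-type cisplatin, 265, 201 and 285 in FAN1KO saline and 65.5, 105 and 88.7 in FAN1KO cisplatin kidneys, with −1.37 ± 0.26 (adjusted p 0.0201). For all of these the FAN1KO cisplatin libraries were the lowest 3. By contrast, Umod, uromodulin of the thick ascending limb, was 1934, 2442 and 1337 TPM in wild-type saline, 921, 2061 and 2149 in wild-type cisplatin, 1229.6, 2444 and 1444 in FAN1KO saline and 1422, 1573 and 1224 in FAN1KO cisplatin kidneys, with an interaction of −0.01 ± 0.51 (adjusted p 0.991) and overlap of all groups. Slc12a1, the cotransporter of that segment, gave −0.07 ± 0.86 (adjusted p 0.970), Slc12a3, that of the distal convoluted tubule, 0.25 ± 0.59 (adjusted p 0.826), and Aqp2, the water channel of the collecting duct, 2.06 ± 0.63 (adjusted p 0.0755). The Slc12a3 value became −0.11 with median-ratio scaling.

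RNA of fuel oxidation genes was read in lists by pathway. Tricarboxylic acid cycle genes had 9 of 24 tested members called lower and 0 higher (1.02% of all genes were lower). All 24 had an interaction below 0, while 74.7% of all genes were above 0, and 19 fell in FAN1KO kidneys (4.9% of all genes did). Sucla2, a subunit of succinyl-CoA synthetase, was 194, 188 and 174 TPM in wild-type saline, 207, 179.6 and 185 in wild-type cisplatin, 207, 179.9 and 185 in FAN1KO saline and 113, 109 and 117 in FAN1KO cisplatin kidneys. The FAN1KO cisplatin libraries reached no more than 117 TPM and all others at least 174, and the interaction was −0.78 ± 0.13 (adjusted p 0.0131). Sdha, the flavoprotein shared by the cycle and complex II, was 502, 516 and 430.5 TPM in wild-type saline, 475, 507 and 516 in wild-type cisplatin, 435, 535 and 524 in FAN1KO saline and 293, 320.1 and 338 in FAN1KO cisplatin kidneys, with −0.70 ± 0.16 (adjusted p 0.0331). Dld, the dihydrolipoamide dehydrogenase of several complexes, gave −0.67 ± 0.12 (adjusted p 0.0160), and Ogdh, of the oxoglutarate complex, −0.35 ± 0.12 (adjusted p 0.113).

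Mitochondrial fatty acid oxidation genes had 3 of 27 called lower, peroxisomal ones 3 of 27, and neither any called higher (1.02% of all genes were lower). Acadm, the medium-chain dehydrogenase, was 1350.0, 1352 and 1287 TPM in wild-type saline, 1033, 1249.9 and 1284 in wild-type cisplatin, 759, 894 and 748 in FAN1KO saline and 379, 403 and 465 in FAN1KO cisplatin kidneys. FAN1KO saline kidneys already lay below all wild-type libraries (−0.74, adjusted p 0.0250), FAN1KO cisplatin kidneys lay below those, and the interaction was −0.78 ± 0.18 (adjusted p 0.0331). Acad11, a dehydrogenase of long-chain substrates, gave −0.73 ± 0.17 (adjusted p 0.0338), and Etfa, the flavoprotein that takes electrons from these enzymes, −0.69 ± 0.15 (adjusted p 0.0302). Echs1 gave −0.43 ± 0.15 (adjusted p 0.105), and Cpt2, an acyl transferase of the inner membrane, −0.57 ± 0.18 (adjusted p 0.0819). Cpt1a, which admits long-chain fatty acids, was 152, 139.6 and 139 TPM in wild-type saline, 182, 155 and 158 in wild-type cisplatin, 174, 127 and 130.2 in FAN1KO saline and 156, 148 and 159 in FAN1KO cisplatin kidneys. The groups overlapped and the interaction was −0.08 ± 0.18 (adjusted p 0.814). In peroxisomes the catalase gene Cat was 552, 508 and 493 TPM in wild-type saline, 617, 585 and 559 in wild-type cisplatin, 574, 523 and 608 in FAN1KO saline and 273, 305 and 366 in FAN1KO cisplatin kidneys, with −1.04 ± 0.17 (adjusted p 0.0124). Scp2, a thiolase and lipid carrier, gave −0.69 ± 0.16 (adjusted p 0.0330) and Ddo, an oxidase of D-aspartate, −1.07 ± 0.24 (adjusted p 0.0298).

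Respiratory chain genes of the nucleus were split in direction but lay below all genes as a list. They had 3 of 73 tested members called lower (4.11%, against 1.02% of all genes) and 0 higher. Their median was 0.01 against 0.28 over all genes, and 38 had an interaction above 0, as did 74.7% of all genes. With median-ratio scaling the medians were −0.35 and −0.03. Ndufs1, the largest subunit of complex I, was 169.7, 169 and 147 TPM in wild-type saline, 167, 144 and 148 in wild-type cisplatin, 159, 163 and 167 in FAN1KO saline and 86.1, 89.3 and 91.7 in FAN1KO cisplatin kidneys, with −0.78 ± 0.13 (adjusted p 0.0124), and Uqcrc2, a core subunit of complex III, gave −0.66 ± 0.14 (adjusted p 0.0256). Both had their FAN1KO cisplatin libraries below all others. Ndufa1, a small subunit of complex I, was 399, 385 and 496 TPM in wild-type saline, 372, 342 and 407 in wild-type cisplatin, 432, 383 and 451 in FAN1KO saline and 344, 442 and 388 in FAN1KO cisplatin kidneys, with 0.07 ± 0.19 (adjusted p 0.843), and Cox4i1, of complex IV, gave 0.15 ± 0.31 (adjusted p 0.791); both turned negative with median-ratio scaling, to −0.29 and −0.21. The 13 mitochondrially encoded genes all had an interaction below 0 and a median of −0.55, yet 0 were called by limma or by voom and 4 were lower at an unadjusted p under 0.05. COX1, of complex IV, gave −0.57 ± 0.42 (adjusted p 0.429).

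Branched-chain amino acids are a fuel of the tubule, and the kidney is a site of glucose synthesis beside the liver. Of 21 tested branched-chain amino acid genes 7 were called lower, and of 16 gluconeogenesis genes 4, with 0 higher in both (1.02% of all genes were lower). The branched-chain anchors Bckdha (−0.40 ± 0.19, adjusted p 0.225) and Bckdhb (−0.39 ± 0.20, adjusted p 0.254) were not called. Oxct1, which activates ketone bodies, was 613, 613 and 539 TPM in wild-type saline, 476, 427 and 418 in wild-type cisplatin, 524, 529 and 559 in FAN1KO saline and 151, 167 and 208 in FAN1KO cisplatin kidneys, without overlap, at −1.20 ± 0.17 (adjusted p 0.00776). Aldh6a1, of valine breakdown, gave −1.15 ± 0.20 (adjusted p 0.0153). Mccc1, of leucine breakdown, was 72.6, 66.1 and 60.0 TPM in wild-type saline, 64.6, 63.1 and 66.0 in wild-type cisplatin, 122, 126 and 128 in FAN1KO saline and 47.9, 55.6 and 62.4 in FAN1KO cisplatin kidneys. FAN1KO saline kidneys were highest (0.92, adjusted p 0.00308) and the cisplatin groups nearly met, so its interaction of −1.14 ± 0.15 (adjusted p 0.00584) rested largely on the saline arm. Fbp1, fructose bisphosphatase, was 1606, 1654 and 1617 TPM in wild-type saline, 1671, 1704 and 1579 in wild-type cisplatin, 1518, 1318 and 1436 in FAN1KO saline and 619.7, 709 and 701 in FAN1KO cisplatin kidneys, with −1.10 ± 0.15 (adjusted p 0.00597). G6pc, glucose-6-phosphatase, was 246, 238 and 284 TPM in wild-type saline, 452, 332 and 434 in wild-type cisplatin, 490.0, 344 and 258 in FAN1KO saline and 92.1, 151 and 166 in FAN1KO cisplatin kidneys. Only 1 library, of FAN1KO saline kidneys, was above the highest of the wild-type cisplatin kidneys, FAN1KO cisplatin libraries were the lowest 3, and the interaction was −2.06 ± 0.37 (adjusted p 0.0156). Glyctk, glycerate kinase, gave −1.35 ± 0.33 (adjusted p 0.0425), and Pck1, the rate-limiting carboxykinase, −1.36 ± 0.57 (adjusted p 0.171).

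Enzymes of amino acid, NAD and creatine synthesis had 7 of 33 called lower and 1 higher (1.02% and 5.22% of all genes). Acmsd, which diverts tryptophan breakdown from NAD synthesis, was 185, 166 and 146 TPM in wild-type saline, 211, 199 and 142 in wild-type cisplatin, 191, 129 and 189 in FAN1KO saline and 24.5, 39.3 and 56.5 in FAN1KO cisplatin kidneys, with −2.24 ± 0.39 (adjusted p 0.0145). The highest FAN1KO cisplatin level was 56.5 TPM and the lowest of the others 129. Aspdh, an aspartate dehydrogenase, gave −2.13 ± 0.50 (adjusted p 0.0367). Phgdh, the first enzyme of serine synthesis, went the other way. It was 6.70, 6.63 and 3.39 TPM in wild-type saline, 4.41, 8.60 and 4.88 in wild-type cisplatin, 3.90, 4.50 and 7.50 in FAN1KO saline and 34.6, 33.9 and 32.7 in FAN1KO cisplatin kidneys, with an interaction of 2.42 ± 0.41 (adjusted p 0.0134). Glycolysis genes had 2 of 18 called higher (11.1%, against 5.22% of all genes). These were the hexokinase gene Hk2, 1.49 ± 0.33 (adjusted p 0.0305), at 1.97 TPM or more in FAN1KO cisplatin and at most 1.01 in other kidneys, and Gpi1, 0.46 ± 0.11 (adjusted p 0.0428), which median-ratio scaling moved to 0.10.

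Stress response genes remake amino acids and refold proteins, and cell death genes decide between survival and several forms of death. Of 22 integrated stress and unfolded protein response genes 3 were called higher and 0 lower (5.22% and 1.02% of all genes). The list was split: 9 of the 22 had an interaction below 0, and 10 were higher and 4 lower at an unadjusted p under 0.05. Median-ratio scaling gave 3 called higher and 3 lower. The anchors Ddit3 (1.04 ± 0.38, adjusted p 0.122) and Chac1 (0.61 ± 0.49, adjusted p 0.470) were not called. Asns, asparagine synthetase, was 11.2, 9.71 and 8.79 TPM in wild-type saline, 7.47, 12.3 and 10.4 in wild-type cisplatin, 2.83, 6.45 and 5.85 in FAN1KO saline and 20.3, 19.3 and 19.6 in FAN1KO cisplatin kidneys, with 1.83 ± 0.35 (adjusted p 0.0185), while the transcription factor gene Atf3 gave 1.91 ± 0.45 (adjusted p 0.0367) and the pseudokinase gene Trib3 1.60 ± 0.35 (adjusted p 0.0291). NRF2 target genes had 1 of 23 called higher (4.35%, against 5.22% of all genes), G6pdx, the entry enzyme of the pentose phosphate pathway, at 0.98 ± 0.20 (adjusted p 0.0245). Cell death genes had 2 of 31 called higher (6.45%, against 5.22% of all genes). Tnfrsf12a, the TWEAK receptor Fn14, was 30.4, 38.3 and 52.4 TPM in wild-type saline, 55.8, 88.1 and 70.8 in wild-type cisplatin, 57.7, 30.2 and 32.7 in FAN1KO saline and 490.1, 319 and 296 in FAN1KO cisplatin kidneys, with 2.37 ± 0.42 (adjusted p 0.0150), and Ripk3, the kinase of necroptosis, gave 1.57 ± 0.40 (adjusted p 0.0450).

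NF-kB response genes encode adhesion molecules, cytokines and the feedback of the pathway on itself. They had 6 of 23 tested members called higher and 1 lower (5.22% and 1.02% of all genes). In FAN1KO kidneys 20 of them rose (34.9% of all genes did), and in wild-type kidneys none was called. Icam1, the adhesion molecule that holds leukocytes, was 13.2, 13.0 and 10.1 TPM in wild-type saline, 12.1, 28.3 and 25.3 in wild-type cisplatin, 6.82, 12.5 and 13.6 in FAN1KO saline and 89.7, 82.6 and 60.2 in FAN1KO cisplatin kidneys, with 2.01 ± 0.45 (adjusted p 0.0323). The NF-kB subunit genes Relb and Nfkb2 gave 1.95 ± 0.46 (adjusted p 0.0362) and 1.61 ± 0.37 (adjusted p 0.0349). Nfkb2 was 11.3, 11.1 and 8.31 TPM in wild-type saline, 11.0, 23.2 and 21.3 in wild-type cisplatin, 7.28, 12.1 and 9.28 in FAN1KO saline and 60.0, 49.0 and 47.4 in FAN1KO cisplatin kidneys. The FAN1KO cisplatin libraries stood highest, and 2 of 3 wild-type cisplatin libraries were above all saline ones. The inhibitor gene Nfkbia gave 1.58 ± 0.48 (adjusted p 0.0729). Sod2, the manganese superoxide dismutase, was the member called lower, at −0.70 ± 0.12 (adjusted p 0.0155), and its protein works in mitochondria.

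Chemokine and cytokine genes had 5 of 31 tested members called higher and 0 lower (5.22% and 1.02% of all genes). Of the 31, 2 passed the filter on low values through the FAN1KO cisplatin libraries alone. Csf1, the growth factor of macrophages, was 5.03, 5.12 and 1.82 TPM in wild-type saline, 2.51, 10.4 and 6.84 in wild-type cisplatin, 1.69, 5.35 and 4.00 in FAN1KO saline and 40.6, 37.1 and 29.7 in FAN1KO cisplatin kidneys, with 2.52 ± 0.65 (adjusted p 0.0486). Lif, a cytokine of the interleukin 6 family, gave 1.67 ± 0.32 (adjusted p 0.0190). Cxcl5, a neutrophil chemokine, was 0, 0.102 and 0.0241 TPM in wild-type saline, 0, 0.164 and 0.173 in wild-type cisplatin, 0, 0 and 0 in FAN1KO saline and 2.77, 3.36 and 2.13 in FAN1KO cisplatin kidneys. It was one of those that passed in this way and so had to differ, and the interaction was 1.80 ± 0.23 (adjusted p 0.00508). Complement genes had 2 of 19 called higher (10.5%, against 5.22% of all genes). C3, the central component, was 11.1, 29.3 and 8.49 TPM in wild-type saline, 22.7, 76.3 and 66.0 in wild-type cisplatin, 5.00, 10.7 and 5.18 in FAN1KO saline and 518, 299 and 431 in FAN1KO cisplatin kidneys, with 4.03 ± 0.73 (adjusted p 0.0160). Wild-type cisplatin libraries reached 76.3 TPM and the lowest FAN1KO cisplatin library 299. The other complement gene called was that of the lectin pathway protease, Masp1 (1.32 ± 0.32, adjusted p 0.0423), which passed the filter through the FAN1KO cisplatin libraries alone and so had to differ.

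Interferon-stimulated genes had median cisplatin effects of 0.52 in wild-type and 1.16 in FAN1KO kidneys. In the interaction 2 of 37 tested were called higher, near the share of all genes (5.41%, against 5.22%). Oasl1, an antiviral synthetase-like protein, gave 2.37 ± 0.36 (adjusted p 0.0106), Dtx3l, a ubiquitin ligase, 0.89 ± 0.22 (adjusted p 0.0411), and Isg15, a ubiquitin-like modifier, 0.68 ± 0.54 (adjusted p 0.465), while the chemokine gene Cxcl10 gave 1.23 ± 0.72 (adjusted p 0.314). Of 27 antigen presentation genes 2 were called higher (7.41%, against 5.22% of all genes), among them Tapbp, tapasin of the peptide loading complex, at 1.33 ± 0.22 (adjusted p 0.0126).

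Markers of immune cells were measured beside these genes. Of 28 macrophage genes 1 was called higher in the interaction (3.57%, against 5.22% of all genes), and the medians were 1.46 in FAN1KO and 0.75 in wild-type kidneys. Their summed level was 137 to 233 TPM in wild-type saline, 166 to 472 in wild-type cisplatin, 127 to 273 in FAN1KO saline and 444 to 1112 in FAN1KO cisplatin kidneys, with no member at 0 in every library. Gpnmb, a glycoprotein of lipid-laden macrophages and injured cells, was the one called, at 1.57 ± 0.32 (adjusted p 0.0232), but it passed the filter through the FAN1KO cisplatin libraries alone and so had to differ. Cd68, of macrophage lysosomes, gave 1.72 ± 0.73 (adjusted p 0.173), and Adgre1, the macrophage marker F4/80, 0.38 ± 0.62 (adjusted p 0.743). Lymphocyte genes had 0 of 19 called by limma or voom, 0 at an unadjusted p under 0.05 and a median of 0.33. The part of these cells in the inflammatory genes was not tested.

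Collagen, myofibroblast factors and matrix proteases take part in scarring. Collagen and matrix genes had 1 of 40 called higher and 1 lower (5% in all, against 6.24% of all genes), with median cisplatin effects of 0.33 in wild-type and 0.47 in FAN1KO kidneys. Col1a1, of fibrillar collagen, was 8.42, 8.24 and 3.48 TPM in wild-type saline, 4.96, 25.2 and 16.2 in wild-type cisplatin, 3.56, 8.45 and 7.96 in FAN1KO saline and 24.4, 17.6 and 12.1 in FAN1KO cisplatin kidneys. The cisplatin groups overlapped, and the interaction was 0.41 ± 0.75 (adjusted p 0.773). Col4a3, of the mature tubular and glomerular basement membrane, was the member called lower, −1.11 ± 0.17 (adjusted p 0.0111). TGF-beta and myofibroblast genes had 3 of 30 called higher (10%, against 5.22% of all genes), with Ccn1, a matricellular protein, at 1.63 ± 0.43 (adjusted p 0.0494) and the receptor gene Tgfbr2 at 1.13 ± 0.25 (adjusted p 0.0287). Acta2, smooth muscle actin, gave 0.02 ± 0.43 (adjusted p 0.979), which median-ratio scaling turned to −0.33. Among proteases and inhibitors, with 3 of 24 called higher and 1 lower (5.22% and 1.02% of all genes), Plaur, the urokinase receptor, gave 3.08 ± 0.77 (adjusted p 0.0448), Adam8 1.89 ± 0.45 (adjusted p 0.0383) and the inhibitor gene Timp1 2.49 ± 0.78 (adjusted p 0.0805). Timp3, an inhibitor bound to matrix, was the member called lower, at −1.47 ± 0.33 (adjusted p 0.0331).

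Erythroid genes had the lowest median interaction, −1.54, with 4 of 10 tested members called lower and 0 higher (1.02% of all genes were lower). The globin genes had the 4 most negative interactions among the named genes. Hba-a2 was 3441, 2639 and 787 TPM in wild-type saline, 1495, 3119.7 and 4415 in wild-type cisplatin, 374, 934 and 1018 in FAN1KO saline and 3.40, 9.89 and 49.3 in FAN1KO cisplatin kidneys, and Hbb-bs was 426, 385 and 108 TPM in wild-type saline, 172, 461 and 579 in wild-type cisplatin, 47.5, 172 and 153 in FAN1KO saline and 0.524, 0.767 and 5.08 in FAN1KO cisplatin kidneys. FAN1KO cisplatin libraries were at most 49.3 and 5.08 TPM and no other library was under 374 and 47.5. The interactions were −6.23 ± 1.20 (adjusted p 0.0196) and −5.88 ± 1.04 (adjusted p 0.0153), and those of Hba-a1 and Hbb-b1 were −5.89 ± 1.16 (adjusted p 0.0206) and −5.59 ± 1.09 (adjusted p 0.0206). These are near-identical copies whose reads the counting could split, so their single values are uncertain. All 8 globin genes together held 7.00 to 84.6 TPM in FAN1KO cisplatin and 615 to 7895 in the other kidneys. With the globin genes left out, 721 genes were called higher and 142 lower. The cause of the globin levels was not tested.

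Endothelial genes had a median interaction of −0.96 with 17 of 21 below 0, 0 called by limma or voom and 0 at an unadjusted p under 0.05. Their summed level was 241 to 671 TPM in wild-type saline, 235 to 878 in wild-type cisplatin, 226 to 815 in FAN1KO saline and 196 to 587 in FAN1KO cisplatin kidneys. Pecam1 gave −1.15 ± 0.98 (adjusted p 0.504) and the receptor gene Kdr −1.99 ± 1.01 (adjusted p 0.250). With a Y-linked covariate 11 of the 21 were called lower and 1 higher, when 4.31% of all genes were called lower and 27.3% higher. Podocyte genes had 1 of 20 called lower (5%, against 1.02% of all genes), and Nphs1, nephrin, gave −0.68 ± 0.85 (adjusted p 0.659). The part of vessels and glomeruli in the other results was not tested.

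Cytosolic ribosomal protein genes had 17 of 75 tested members called higher (22.7%, against 5.22% of all genes), 0 lower and a median of 0.87. Rps16 was 70.3, 40.7 and 71.1 TPM in wild-type saline, 63.0, 57.9 and 57.7 in wild-type cisplatin, 28.3, 47.4 and 37.8 in FAN1KO saline and 103, 121 and 89.6 in FAN1KO cisplatin kidneys, with 1.45 ± 0.33 (adjusted p 0.0325), and Rpl24 and Rpl37 gave 1.41 ± 0.36 (adjusted p 0.0450) and 1.40 ± 0.37 (adjusted p 0.0493). The FAN1KO cisplatin libraries stood above all others for Rps16 and Rpl24, and for all 3 genes FAN1KO saline kidneys and wild-type saline replicate 2 held the lowest levels. Ribosomal protein genes share reads with processed pseudogenes, and median-ratio scaling left 1 of the 17 calls.

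Some interactions were made by wild-type kidneys or by the saline arms. Gm7429, a gene of unstated function on the X chromosome, was 32.9, 29.9 and 33.7 TPM in wild-type saline, 13.9, 25.4 and 6.05 in wild-type cisplatin, 2.07, 4.21 and 4.02 in FAN1KO saline and 43.1, 18.1 and 10.2 in FAN1KO cisplatin kidneys. The FAN1KO saline libraries were the lowest 3 (difference between saline groups −2.94, adjusted p 0.0313), and the interaction of 3.53 ± 0.74 (adjusted p 0.0248) combined a rise of 2.29 in FAN1KO with a difference of −1.24 in wild-type kidneys. The pseudogenes Gm5321 and Gm5781 also had wild-type effects below 0 (−1.11 and −0.87) beside FAN1KO effects above 0 (1.24 and 1.74), with interactions of 2.35 ± 0.49 (adjusted p 0.0248) and 2.61 ± 0.54 (adjusted p 0.0240), and their reads may belong to related copies. A2m, the protease inhibitor alpha-2-macroglobulin, was 1.32, 2.06 and 1.27 TPM in wild-type saline, 0.449, 0.514 and 0.256 in wild-type cisplatin, 0.117, 0.161 and 0.146 in FAN1KO saline and 0.287, 0.439 and 0.126 in FAN1KO cisplatin kidneys. A2m passed the filter through the wild-type saline libraries alone and so had to differ, and its interaction was 1.01 ± 0.25 (adjusted p 0.0412).

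Col27a1, a fibrillar collagen, was 18.2, 21.2 and 18.9 TPM in wild-type saline, 34.7, 32.2 and 32.9 in wild-type cisplatin, 18.2, 16.4 and 18.6 in FAN1KO saline and 16.1, 20.4 and 12.0 in FAN1KO cisplatin kidneys. It was highest in the 3 wild-type cisplatin libraries, with effects of 0.75 in wild-type and −0.15 in FAN1KO kidneys and an interaction of −0.90 ± 0.22 (adjusted p 0.0441). Mir5106 held 3, 6 and 3 reads in the wild-type cisplatin libraries and 0 in the other 9, so it passed the filter through the wild-type cisplatin libraries alone and had to differ. With so few reads its level is uncertain. The noncoding RNA 2310081J21Rik was 10.7, 9.31 and 4.28 TPM in wild-type saline, 4.37, 7.70 and 6.63 in wild-type cisplatin, 6.58, 8.74 and 11.8 in FAN1KO saline and 0.619, 0.741 and 0.167 in FAN1KO cisplatin kidneys, with −2.44 ± 0.46 (adjusted p 0.0184) from the FAN1KO arm.

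The number of calls depended on how Y-linked RNA and scale were handled. In the 8 libraries without Y-linked RNA, a subset chosen after seeing the data, all 935 called genes had the same sign, 699 of the 782 and 137 of the 153 were called, and 2004 genes in all were higher and 434 lower. In the 4 libraries with Y-linked RNA, 1 a group and hence with no test, all 935 had the same sign. These libraries also chose the genes. A Y-linked covariate gave 4088 higher and 646 lower genes, and median-ratio scaling gave 332 and 156, so that the share of higher calls went from 83.6% to 68.0%. Of the 782 and 153 genes, 305 and 74 were called after scaling.

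**Figure D5:**
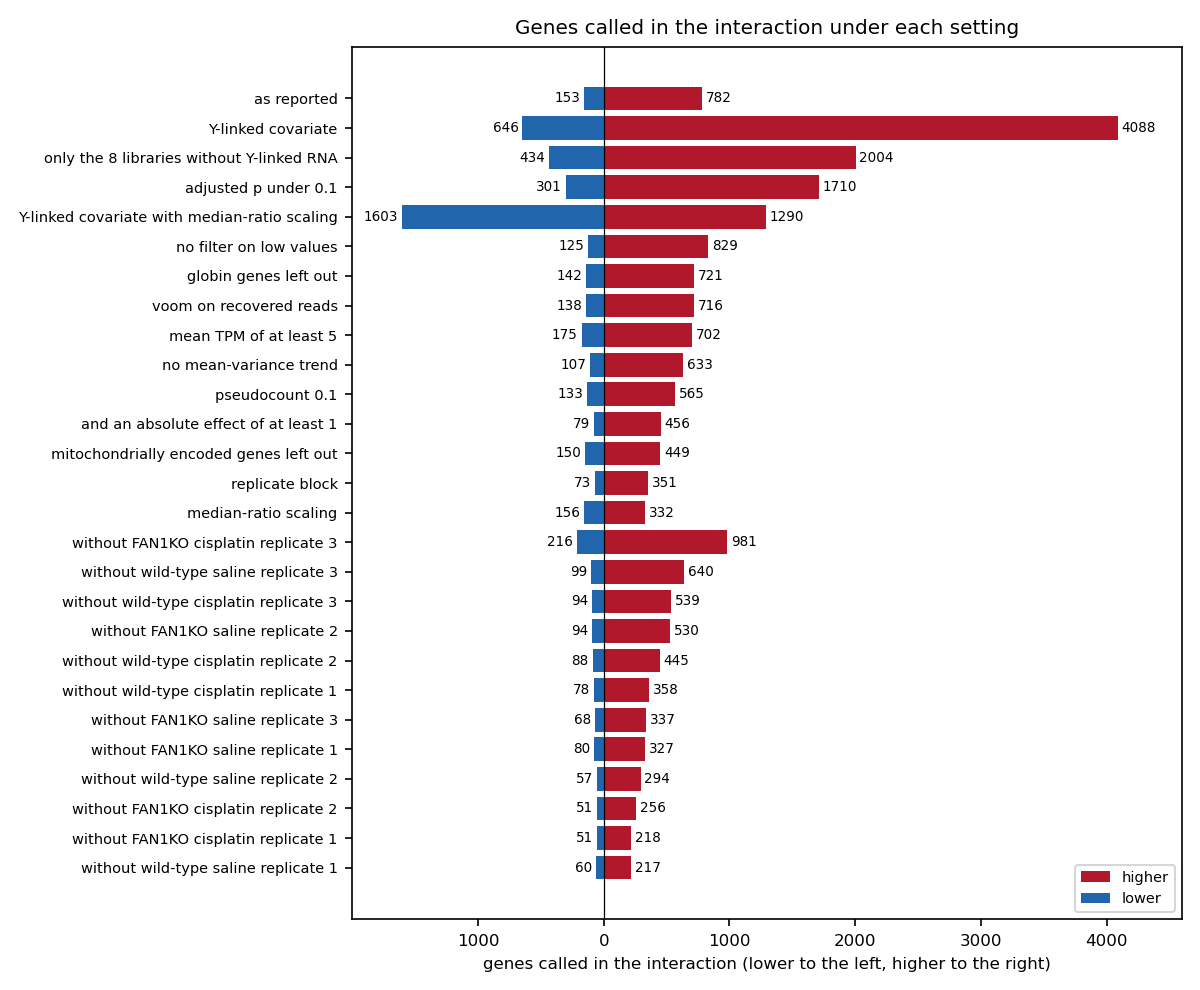
Number of genes called in the interaction (adjusted p under 0.05 unless stated) under each setting, higher to the right in red and lower to the left in blue. Higher calls range from 217 without wild-type saline replicate 1 to 4088 with a Y-linked covariate, and lower calls from 51 without FAN1KO cisplatin replicate 1 or 2 to 1603 with the covariate and median-ratio scaling.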

How the data were processed

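Whole-kidney RNA from 12 mice was sequenced, and the authors deposited 1 table of TPM per gene, labelled with the genome build mm10. The aligner, the annotation and the counting are not given in the sources used here. The labels' replicates are separate mice of 4 groups of 3. TPM of all 232991 nonzero values came out as whole reads within a tolerance of 0.02, which gave the read totals. Genes that reached 1 TPM in 3 or more libraries were kept, log2(TPM + 1) was fitted with 4 group means in limma 3.58.1 (empirical Bayes with a mean-variance trend, R 4.3.3), and the interaction was tested on both sides with Benjamini-Hochberg adjustment over 14972 genes. Fold changes on this scale understate the change of low genes. An adjusted p under 0.05 counted as called. On simulated data 61 of 100 interactions of 2-fold and 100 of 100 of 4-fold were recovered, with 15 unchanged genes called among 14555 tested. The simulation gave every gene the same spread, changed only well-read genes and held no difference between libraries beyond depth. It does not give the share recovered for genes with a wider spread, such as Aqp2 (2.06, adjusted p 0.0755 by limma).

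Genes were named as the 10 largest interactions in each direction with a mean TPM of at least 5, anchors and up to 3 largest called members of each list, called genes with opposite wild-type effects, genes of the paper, and genes called in both genotypes. Krt19, Gtse1, Eda2r, Zmat3, Perp, Phlda3, Hmmr, Sod2, Timp3 and A2m were named after their values were seen. The members and lists were chosen with earlier results of these data known. Alternatives were the pseudocount, filters, scaling, a Y-linked covariate, a replicate block, voom on the recovered reads, globin or mitochondrial genes left out, other thresholds, and each library left out. Figures were drawn with matplotlib 3.10.9.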

Additional observations from a re-analysis of the deposited data

Results flagged for a closer look

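The cisplatin effect differed between the genotypes by limma's test of the interaction itself for 782 genes that were higher in FAN1KO kidneys and 153 that were lower (adjusted p under 0.05, 14972 genes tested). Within the genotypes 5229 and 733 genes were called in FAN1KO kidneys and 9 and 0 in wild-type kidneys. With 3 mice a group, no group was large enough for a search for single outlying libraries.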

How the results depend on the processing

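Of the 95 named genes with a called interaction, none changed direction under up to 24 alternatives, 34 kept the call with each library left out in turn and 26 under every alternative. Scaling kept 65 of these calls, voom on recovered reads 65 and the replicate block 54. Over the 12 fits that left out 1 library, the interaction had 217 to 981 genes higher and 51 to 216 lower, the FAN1KO arm 3140 to 5607 higher and 482 to 786 lower, and the wild-type arm 0 to 41 higher and 0 lower.

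Counts are given as higher then lower. A Y-linked covariate gave 4088 and 646 for the interaction, 7919 and 1222 in FAN1KO and 57 and 1 in wild-type kidneys. Median-ratio scaling gave 332 and 156, 2157 and 2101, and 14 and 1. Both together gave 1290 and 1603, 3259 and 3903, and 40 and 5. The 8 libraries without Y-linked RNA, chosen after seeing the data, gave 2004 and 434 for the interaction, 60 and 3 in wild-type and 1256 lower in FAN1KO kidneys. An effect of at least 1 as well left 456 and 79, and 1801 and 198 in FAN1KO kidneys. An adjusted p under 0.1 gave 1710 and 301, and 18 higher in wild-type kidneys. Without mitochondrially encoded genes 449 genes were higher, and 14 in wild-type kidneys. The cause of these shifts was not tested.

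The replicate block gave 351 and 73 for the interaction and 0 higher in wild-type kidneys. Same-numbered libraries deviated together no more than others on average (mean correlation 0.018 against 0.0151 over 18 pairs, −0.606 to 0.761). That average cannot show whether the numbers pair the mice. The same-numbered pairs spread widely, and the library with Y-linked RNA did not carry the same number in every group.

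Changes of sign were limited to named genes without a call. Under scaling, and with the covariate added, Slc12a3 was −0.11 and −0.11, Ndufa1 −0.29 and −0.29, Cox4i1 −0.21 and −0.21, Acta2 −0.33 and −0.33 and Ccng1 −0.23 and −0.23. In the 8 libraries Cpt1a was 0.14, Exoc4 0.082, Ndufa1 −0.020, Cox4i1 −0.089 and Acta2 −0.28. Without mitochondrially encoded genes Ndufa1 was −0.031 and Acta2 −0.079. With 1 library left out, Acta2 ran from −0.31 to 0.30, Adgre1 −0.057 to 0.64, Ccng1 −0.017 to 0.32, Col1a1 −0.20 to 0.86, Cox4i1 −0.075 to 0.31, Cpt1a −0.16 to 0.066, Exoc4 −0.15 to 0.015, Ndufa1 −0.040 to 0.16, Slc12a1 −0.60 to 0.55, Slc12a3 −0.044 to 0.67 and Umod −0.41 to 0.28.

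Of 39 list medians, 10 changed sign relative to all genes under an alternative, among them those of lymphocyte, TGF-beta, collagen, collecting duct and thick ascending limb genes. With 3 mice a group, interactions of 2-fold were recovered less fully than those of 4-fold on simulated data.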
